A study of Mus musculus with 8 samples.

Results

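The BCL2 family genes examined here were Bcl2l11 (whose protein is BIM), Bad, Bid, Bax, Bak1, Bcl2, Bcl2l1, Bcl2l2 and Mcl1. They were measured in visual cortex of mice with 1 eye removed. Members were all probe sets paired with exactly 1 of these 9 symbols in the platform annotation, which gave 14 probe sets of 8 genes, out of 12422 probe sets and 8251 named genes on the array. No probe set carried the name Bax alone, so Bax was not analysed here. Of the 14 probe sets, 11 passed a filter on dim signals, with at least 1 for each of the 8 genes. The family was selected on the signal of 1 Bcl2l11 probe set, whose difference between the hemispheres in these same arrays had been among those with the smallest p. Its difference is therefore given as a description without a test, and the other members are family relatives of it.

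Wild-type C57Bl6 mice lost 1 eye at postnatal day 20, and their visual cortex was taken at postnatal day 24, after 4 days. Deprived cortex, the hemisphere contralateral to the removed eye, was on 4 arrays, and non-deprived cortex, the ipsilateral hemisphere, on another 4. Both hemispheres came from operated animals and unoperated animals were not sampled, so a difference cannot be assigned to a change in either hemisphere. The labels speak of 4 mice and also of pooled samples, so the spread between arrays may be technical, and p-values measure only that spread.

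The BCL2 family controls the mitochondrial pathway of apoptosis. Pro-survival proteins bind and restrain the effectors, the effectors open the outer mitochondrial membrane and release cytochrome c, and BH3-only proteins tip this balance towards death by binding the other classes. In the developing brain the family sets how many neurons survive, and neurons in culture that lose trophic support or activity raise BIM. Much of the control of BAD and BID is on the protein, by phosphorylation and cleavage, which an array does not see.

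BIM is also a known target of forkhead FOXO factors, which recognise the core GTAAACA. The 250 bases before the more upstream of its RefSeq start sites are shown because this core is in them, at chr2:128125788-128126037 of GRCm38.p6, plus strand, with the core in capitals.

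Bcl2l11 upstream sequence: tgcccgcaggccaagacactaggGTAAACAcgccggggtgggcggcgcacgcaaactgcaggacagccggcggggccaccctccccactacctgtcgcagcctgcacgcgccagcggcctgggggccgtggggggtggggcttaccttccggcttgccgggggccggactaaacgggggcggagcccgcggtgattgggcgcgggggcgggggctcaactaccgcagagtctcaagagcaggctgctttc

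The core begins 227 bases before the start site. Of 13 RefSeq promoter windows of the 9 genes, each 300 bases long and searched on both strands, 1 held GTAAACA, against 3.65% of all 32851 windows. This is a match of letters, and the arrays carry no measure of binding there.

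Neuron markers were plentiful on the arrays. All 5 neuron markers with a probe set passed the filter, with Snap25, a synaptic vesicle fusion protein, at a mean signal of 14740 in deprived and 15120 in non-deprived cortex. None of the 3 choroid plexus markers passed, nor did the leukocyte marker Ptprc, at 15.1 and 20.05. Of the 7 blood list genes with a probe set, Ptprc included, 2 passed. These were Hba-a1, at mean signals of 9885 in deprived and 10820 in non-deprived cortex, and Alas2, at 421.3 and 394.9. Summed signals of 11 marker lists overlapped between the groups in all 11, for example 5244 to 6282 in deprived and 5471 to 6411 in non-deprived arrays for microglia. Sums follow the brightest genes, and single markers had log2 differences away from 0 without being called. The lowest of the interneuron list were the peptide genes Npy (-0.60 ± 0.34, SE) and Sst (-0.49 ± 0.27, SE). That list had 2 genes above 0 and 5 below, with a median of -0.06. In the hippocampus list Wfs1 had -0.28 ± 0.14 (SE), and its groups did not overlap, while Zbtb20 had 0.03 ± 0.24 (SE). Tcf7l2 of the thalamus list had 0.32 ± 0.19 (SE), while Rora had -0.11 ± 0.27 (SE). In that list 3 of 4 tested genes lay above 0, with a median of 0.09. What part these markers had in the members' values was not tested. In whole tissue, fewer cells of a type and less RNA per cell cannot be told apart. The 10th percentile of signal was 15.0 to 21.1 in deprived and 12.6 to 14.1 in non-deprived arrays (exact two-sided permutation p = 0.0286, the smallest that 4 against 4 allow).

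Across all 7453 probe sets tested, limma called 0 higher and 0 lower in deprived cortex after Benjamini-Hochberg adjustment (0% each way), against 199 at an unadjusted p under 0.05 (2.67%). None of the 11 tested member probe sets was called. The groups did not overlap, with deprived higher, for 1 of the 11, against 1.23% of all probe sets, and with deprived lower for 0 of the 11, against 0.805%. The 1 with deprived higher is the Bcl2l11 probe set that led to the choice of the family, so nothing is read from these counts. Over the 11, the median log2 difference of signal plus pseudocount was 0.11, against 0.02 over all tested probe sets. Of the 11, 9 lay above 0, against 54.9% of all. Both values include 99418_at, the Bcl2l11 probe set the family was selected on. Among the 9, Bcl2l11 100988_at and Bad 161500_i_at lay at 0.01, so no shift of the family is read from these values. With the actin 3' to 5' ratio, a measure of RNA integrity, as a covariate, the median over the 11 was 0.01, against 0.001 over all tested probe sets. In that fit 99418_at had 1.04 ± 0.27 (SE).

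Bcl2l11 gave different pictures in its 3 probe sets. In 99418_at the signals were 236.4, 258.8, 301.5 and 409.9 in deprived replicates 1 to 4, against 112.7, 226.7, 151.9 and 183.3 in non-deprived replicates 1 to 4. Every deprived array lay above every non-deprived one, and the nearest values were 236.4 of deprived replicate 1 and 226.7 of non-deprived replicate 2. The means were 302 ± 77.1 in deprived and 169 ± 48.3 in non-deprived cortex (SD, n = 4 each), a log2 difference of 0.79 ± 0.24 (SE) and a fold of 1.73 on that scale.

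The pairs of arrays that share a replicate number differed unevenly in 99418_at. The log2 differences were 0.98, 0.18, 0.92 and 1.10 for numbers 1 to 4. All 4 were above 0, which follows from the groups not overlapping, and the pair numbered 2 gave the smallest. Deprived replicate 4, the brightest array of this probe set, also had the highest 10th percentile of signal, 21.1. What part that had in the difference was not tested. The difference was 0.71 after quantile normalization and 0.64 without deprived replicate 4.

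The second probe set, 100988_at, passed the filter as well and showed no such separation. Signals were 263.6, 278.9, 284.9 and 253.0 in deprived cortex, against 318.2, 283.9, 241.0 and 237.5 in non-deprived cortex. The deprived arrays lay inside the range of the non-deprived ones. The means were 270.1 ± 14.5 and 270.1 ± 38.4 (SD, n = 4 each), with a log2 difference of 0.01 ± 0.17 (SE, 95% interval -0.35 to 0.37).

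The third, 99419_g_at, was too dim to be tested. Its signals ran from 6.6 to 36.3 in deprived and from 4.8 to 24.3 in non-deprived cortex, and the groups overlapped. It is annotated to the same GenBank entry as 99418_at, while 100988_at is annotated to another. Deviations from the group means of 99418_at and 100988_at correlated at -0.40 over the 8 arrays, and those of 99418_at and 99419_g_at at 0.17. These values describe 8 arrays that the probe sets share. The deposited table does not say which part of the transcript each probe set reads, and which of them follows BIM mRNA was not tested.

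**Figure D1:**
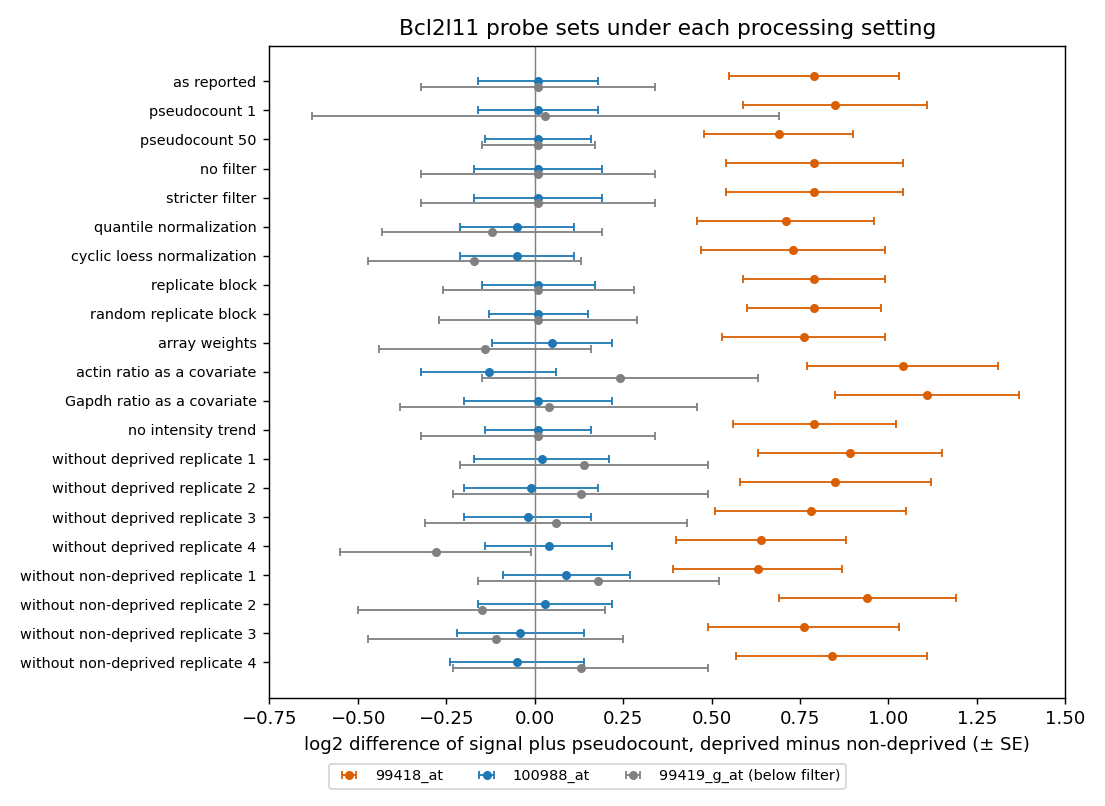
Log2 difference of signal plus pseudocount, deprived minus non-deprived (x axis, ± SE), of the 3 Bcl2l11 probe sets under each processing setting (rows). 99418_at, which was selected for its difference in these arrays, lay between 0.63 and 1.11. The values of 100988_at and the dim 99419_g_at lay on both sides of 0.

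Neither of the remaining BH3-only genes was called, as was true of Bcl2l11. Bid, which links death receptors to mitochondria once caspase-8 has cut its protein, had signals of 196.8, 135.4, 100.8 and 111.3 in deprived cortex, against 135.1, 107.7, 64.5 and 113.5 in non-deprived cortex. The groups overlapped, and 3 of 4 same-numbered pairs were higher in the deprived array. The log2 difference was 0.33 ± 0.28 (SE, 95% interval -0.29 to 0.94), and it was 0.15 when deprived replicate 1 was left out, 0.14 when non-deprived replicate 3 was left out and 0.16 when the fit held the actin ratio as a covariate. Bid was dim, close to the filter signal of about 110.

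Bad, whose protein neutralises BCL-XL and BCL2 when it is not phosphorylated, had 2 probe sets that passed the filter. In 161500_i_at the signals were 347.3, 378.1, 401.2 and 263.6 in deprived and 379.8, 307.6, 384.1 and 297.4 in non-deprived cortex, a log2 difference of 0.01 ± 0.18 (SE). In 99670_at they were 299.7, 223.2, 263.6 and 491.3 in deprived and 306.9, 243.6, 237.4 and 352.5 in non-deprived cortex, a difference of 0.11 ± 0.24 (SE). The groups overlapped in both. The 2 probe sets ran against each other from array to array: deprived replicate 4 was the lowest of the 8 arrays in 161500_i_at and the highest in 99670_at, and their deviations from the group means correlated at -0.77. Without deprived replicate 4 the difference of 99670_at was -0.11.

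Of the effectors, Bak1, which forms pores in the outer mitochondrial membrane, was measured by 1 probe set. Its signals were 358.6, 474.8, 529.5 and 483.8 in deprived cortex, against 435.6, 424.8, 638.5 and 658.8 in non-deprived cortex. The 2 highest values were both from non-deprived arrays, but the groups overlapped. The log2 difference was -0.20 ± 0.19 (SE, 95% interval -0.63 to 0.22), lower in the deprived array of 3 of 4 pairs. It did not pass, and it was -0.09 when deprived replicate 1 was left out, -0.10 when non-deprived replicate 4 was left out and -0.08 in the fit that held the actin ratio.

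Among pro-survival members, Bcl2l2, which encodes BCL-W, had 1132.7, 1167.8, 1069.9 and 849.1 in deprived and 1013.4, 1076.6, 745.4 and 692.2 in non-deprived cortex. The deprived array was the higher one in 4 of 4 same-numbered pairs, by log2 differences of 0.12 to 0.51, although the groups overlapped. The log2 difference was 0.27 ± 0.18 (SE, 95% interval -0.12 to 0.66). It did not pass, with limma adjusted p = 0.995 and, with the replicate number as a block, adjusted p = 0.703. With the block its 95% interval was 0.01 to 0.53, in a limma fit where 524 of 7453 probe sets had an unadjusted p under 0.05. The difference was 0.03 in the fit that held the actin ratio, and it was 0.16 without non-deprived replicate 4.

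Mcl1, a short-lived pro-survival protein that cortical neurons need during development, went the other way in every pair. Its signals were 900.3, 755.4, 663.4 and 733.2 in deprived cortex, against 938.9, 1107.8, 680.0 and 769.4 in non-deprived cortex. The pair numbered 2 differed by -0.54, while the others differed by -0.03 to -0.07. The log2 difference was -0.18 ± 0.17 (SE, 95% interval -0.56 to 0.20) and did not pass. It was -0.06 without non-deprived replicate 2 and 0.02 with the Gapdh 3' to 5' ratio as a covariate.

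Bcl2l1, which encodes BCL-XL, a pro-survival protein of mature neurons, was read at a mean signal of 2011 ± 333 in deprived and 1794 ± 150.4 in non-deprived cortex (SD, n = 4 each) by 99027_at. Deprived replicate 2 had 2509.4 and the other 3 deprived arrays had 1802.7 to 1869.6, against 1574.8 to 1905.8 in non-deprived cortex. The log2 difference was 0.15 ± 0.14 (SE, 95% interval -0.16 to 0.47). It was 0.04 without deprived replicate 2 and 0.01 in the fit that held the actin ratio. It did not pass. A further probe set, 99026_at, was at 6.9 to 23.3 in deprived and 5.9 to 23.6 in non-deprived cortex, too dim to test.

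Bcl2 itself, the founding member, had 3 probe sets, all annotated to the same GenBank entry. In 98870_at the signals were 634.5, 637.9, 696.1 and 473.3 in deprived and 670.2, 465.3, 634.8 and 561.7 in non-deprived cortex, with a log2 difference of 0.06 ± 0.17 (SE). In 98869_g_at they were 277.2, 307.3, 384.2 and 371.4 in deprived and 336.8, 249.3, 294.5 and 258.5 in non-deprived cortex, with 0.22 ± 0.18 (SE, 95% interval -0.16 to 0.60). The groups overlapped in both, and neither passed. The dim 98868_at, which was not tested, lay at 13.9 to 48.3 in deprived and 28.8 to 53.0 in non-deprived cortex. The sign of 98870_at turned with either RNA integrity ratio as a covariate, to -0.08 with actin and -0.17 with Gapdh.

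**Figure D2:**
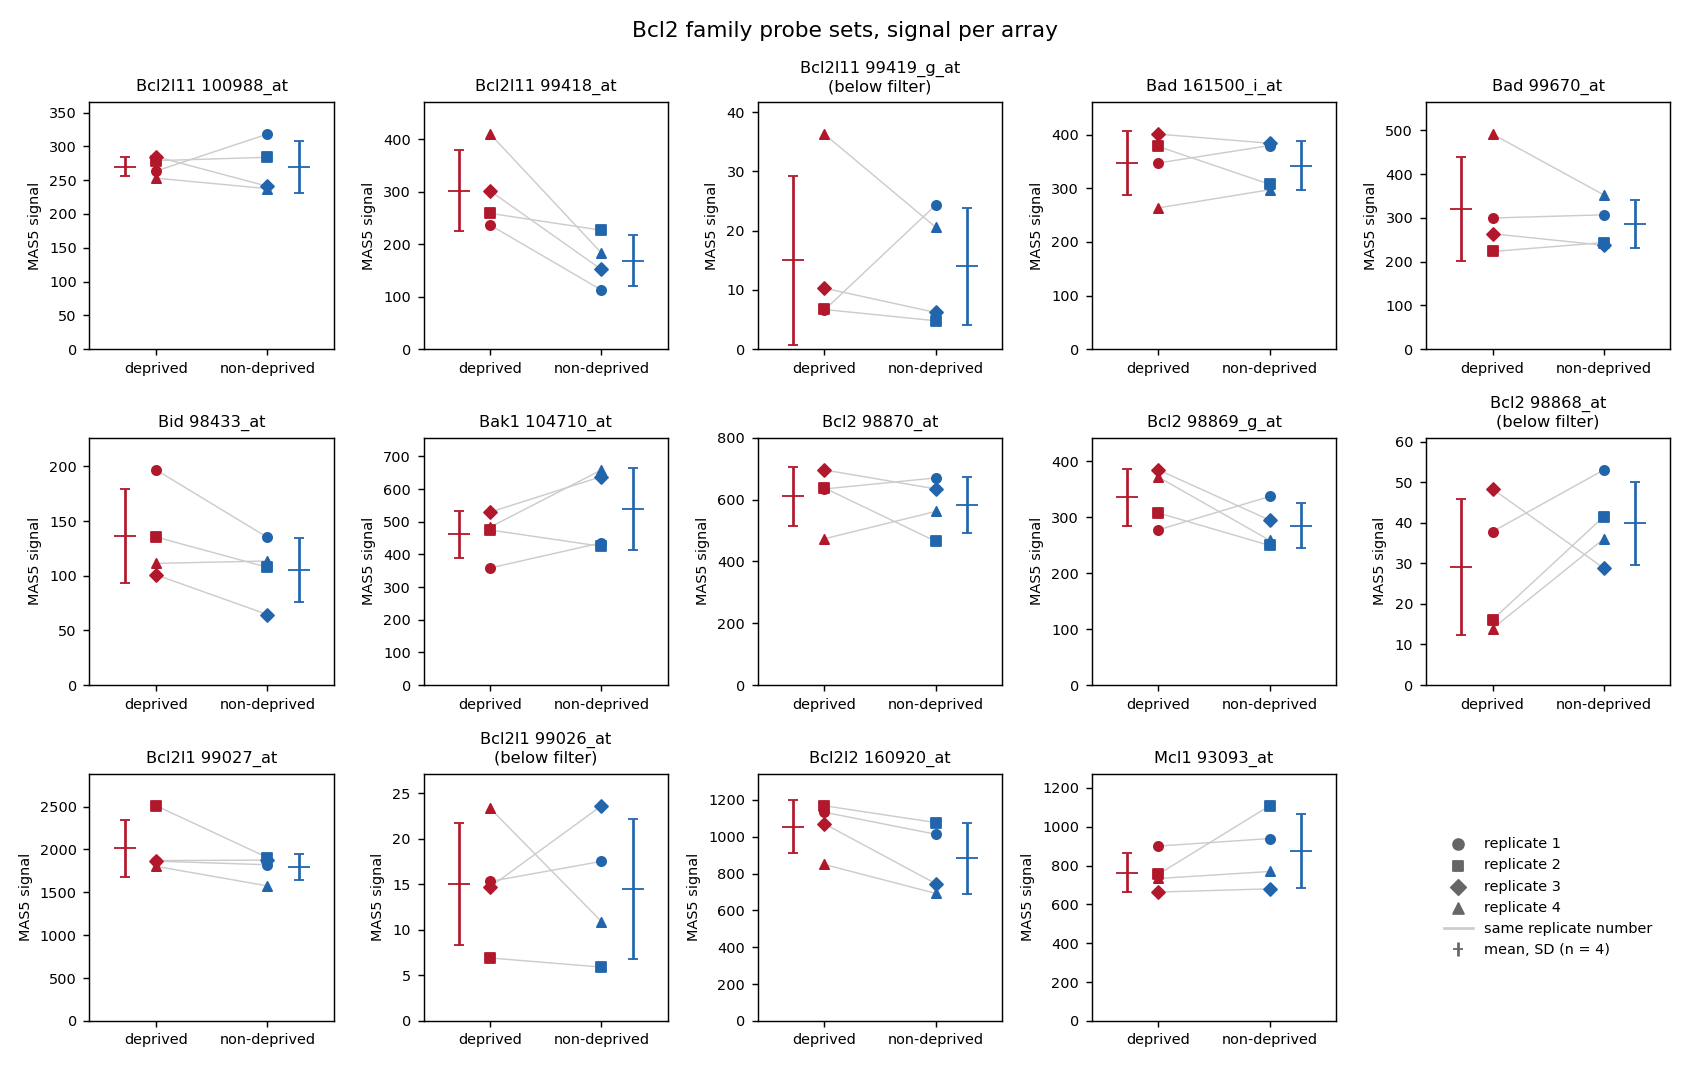
MAS5 signal (y axis, linear, from 0) of the 14 member probe sets in deprived and non-deprived cortex. Each point is 1 array, its shape is the replicate number, grey lines join equal numbers and bars show mean and SD (n = 4). Bcl2l11 99418_at is the 1 panel in which the groups do not overlap.

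By class, the 5 tested BH3-only probe sets had log2 differences of 0.01 to 0.79, with a median of 0.11, which includes 99418_at, the probe set the family was selected on. With the brightest probe set for each of the 3 BH3-only genes the range was 0.01 to 0.33 and the median 0.01. The 5 tested pro-survival probe sets had -0.18 to 0.27, with a median of 0.15, or 0.11 with 1 probe set for each of the 4 genes. Probe sets of 1 gene share that gene, so neither set holds 5 independent values. The tested member probe sets other than 99418_at all had limma adjusted p = 0.995. For the 10 other than 99418_at the 95% interval of the fit without the block included 0, which does not show that the hemispheres were alike. With the replicate number as a block it included 0 for 9 of the 10, the exception being Bcl2l2. That limma fit gave 524 of all 7453 tested probe sets an unadjusted p under 0.05, so nothing is read from this exception.

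**Figure D3:**
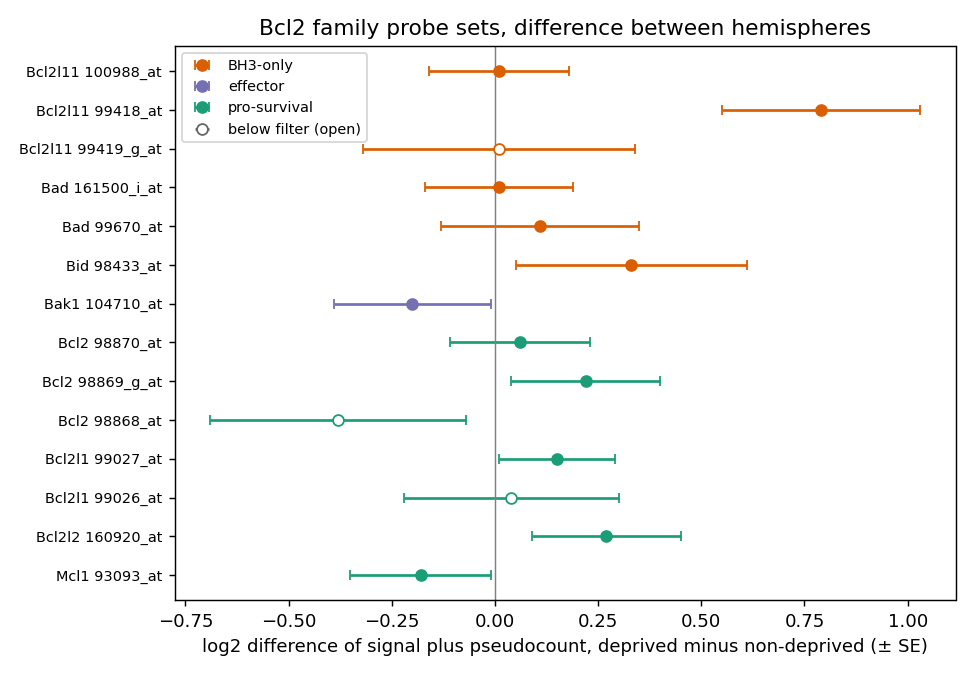
Log2 difference of signal plus pseudocount, deprived minus non-deprived (x axis, ± SE, 4 arrays per group), of the 14 member probe sets, coloured by class, with open circles for those below the filter. Bcl2l11 99418_at stands at 0.79, and the other tested probe sets run from -0.20 to 0.33.

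Around the family, 5 lists of 94 genes held 51 that were tested, and none was called. Of these, 29 lay above 0 and 22 below. The list of apoptosome genes, caspases, their inhibitors and other mitochondrial death factors had 10 of 12 genes above 0, with a median of 0.18, against 54.9% above 0 and a median of 0.02 over all tested probe sets. The 10 include caspase inhibitors (Xiap, Birc2 and Birc6) and Dffa, which holds the apoptotic DNase inactive, beside death-promoting genes. Apaf1, the scaffold of the apoptosome, had signals of 162.2, 264.8, 217.4 and 211.2 in deprived cortex, against 126.7, 208.3, 167.9 and 123.2 in non-deprived cortex. The deprived array was higher in 4 of 4 pairs, the groups overlapped, and the difference of 0.43 ± 0.23 (SE) did not pass. Casp9, the caspase that the apoptosome activates, had 0.30 ± 0.20 (SE) in its brightest probe set, 0.25 and 0.15 in its other tested ones, and 0.44 ± 0.49 (SE) in a dim one that was not tested. Xiap, a caspase inhibitor, had 0.26 ± 0.30 (SE), with 0.37 in another tested probe set and -0.61 in a dim one. Cycs, cytochrome c itself, had -0.18 ± 0.18 (SE).

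In the death receptor list 5 of 7 tested genes lay above 0, with a median of 0.20. Daxx, a FAS-binding and chromatin protein, had 458.0, 477.1, 518.4 and 409.6 in deprived cortex, against 377.3, 280.4, 328.3 and 391.1 in non-deprived cortex, and the groups did not overlap. Its log2 difference of 0.43 ± 0.16 (SE) did not pass (limma adjusted p = 0.995). Tnfrsf21, a death receptor of neurons, had -0.10 ± 0.14 (SE). Fas, Fasl, Fadd, Casp8 and Casp12 were too dim to test.

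Mitochondrial pore genes lay mostly below 0, in 5 of 7, with a median of -0.16. Slc25a4, an ADP/ATP carrier of the inner membrane, had a mean signal of 8748 ± 1040 in deprived and 10230 ± 930 in non-deprived cortex (SD, n = 4 each) and a difference of -0.23 ± 0.13 (SE). Vdac2, an outer membrane channel that binds BAK1, had 0.07 ± 0.22 (SE). Of the other BCL2 relatives and partners, 4 of 6 lay above 0, with a median of 0.05. Bnip3, a mitochondrial protein of hypoxia and mitophagy, had 0.19 ± 0.17 (SE), and Bag1, a BCL2-binding co-chaperone, had -0.23 ± 0.19 (SE). Bbc3, which encodes the BH3-only protein PUMA, had no probe set of its own name.

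Genes linked to the control of Bcl2l11 or to stress upstream of it had 8 of 19 above 0, with a median of -0.05. Foxo3, a forkhead activator of Bcl2l11, had 1685 ± 543 in deprived and 1391 ± 184 in non-deprived cortex (SD, n = 4 each), a difference of 0.23 ± 0.21 (SE). Jun, a target of JNK signalling that can drive Bcl2l11 in neurons deprived of growth factor, had 0.32 ± 0.25 (SE), and Ddit3, the stress factor CHOP, -0.02 ± 0.26 (SE). Cdkn1a, the p53 target p21, had signals of 188.3, 230.4, 306.0 and 307.7 in deprived cortex, against 267.9, 422.1, 440.2 and 484.7 in non-deprived cortex. It was lower in the deprived array of 4 of 4 pairs, the groups overlapped, and its difference of -0.61 ± 0.22 (SE), with -0.38 in its other probe set, did not pass.

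**Figure D4:**
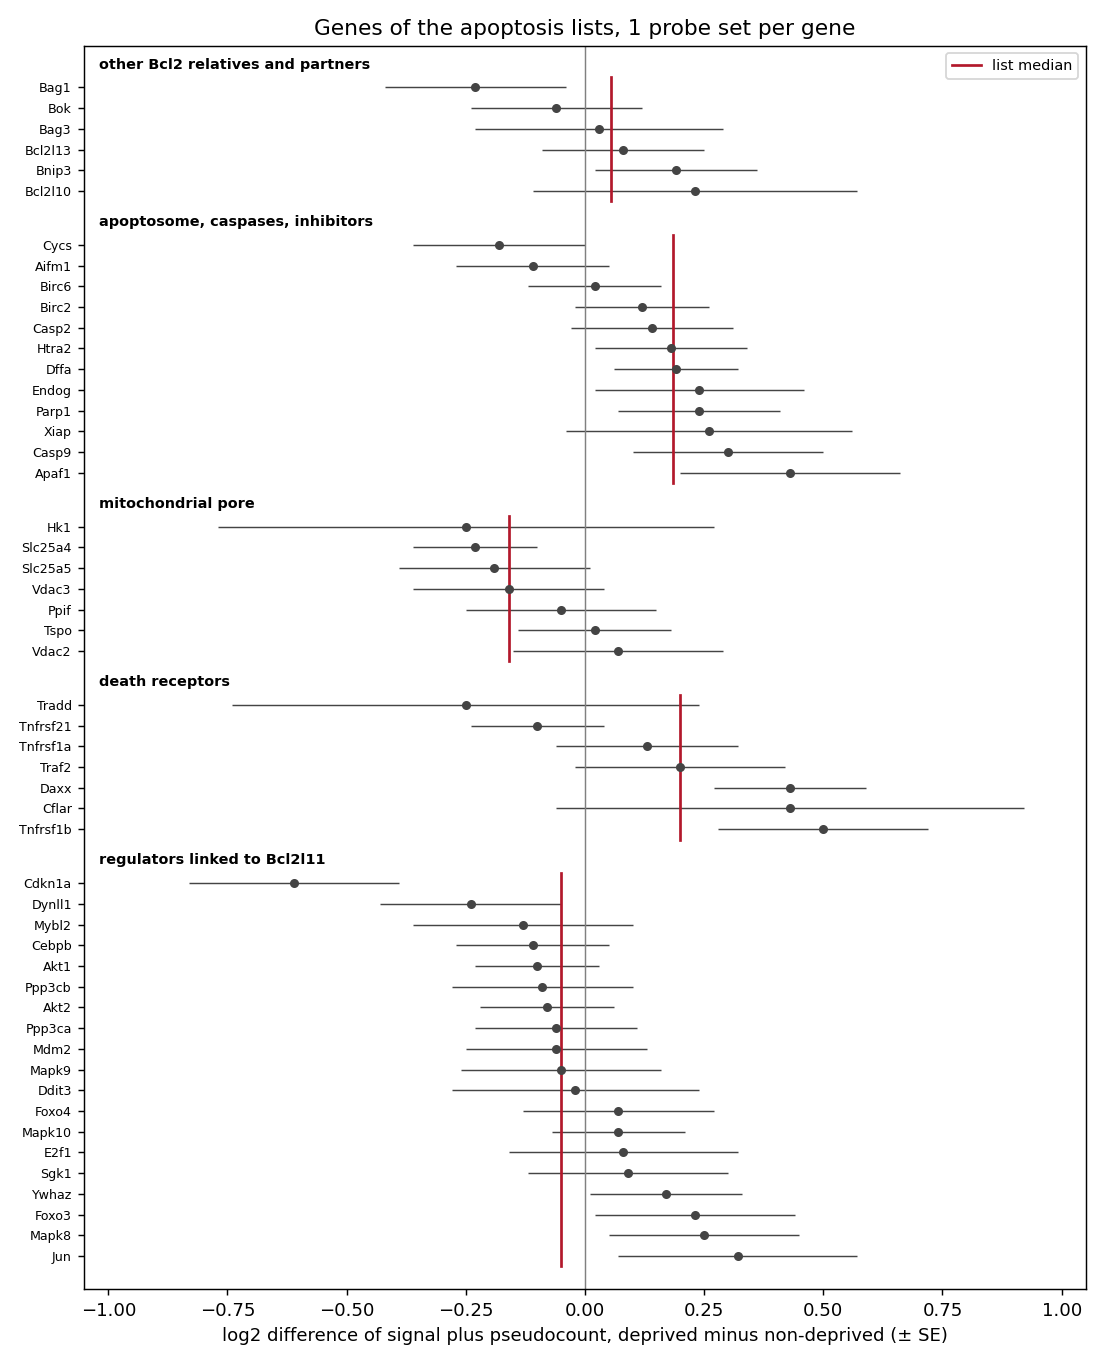
Log2 difference of signal plus pseudocount, deprived minus non-deprived (x axis, ± SE), of the 51 tested genes in 5 lists around the family, with the brightest probe set for each gene and a red line at each list's median. Medians run from -0.16 for the mitochondrial pore to 0.20 for death receptors, and none of the 51 genes was called.

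The genes that varied most like Bcl2l11 from array to array within the groups were found for 100988_at, its brightest probe set. Over deviations from the group means on 8 arrays, the highest Pearson correlations among 5667 genes were those of Rassf5 (0.98, Spearman 0.93), Mdm4 (0.97, 0.88), Tlcd4 (0.97, 0.88), Zfp35 (0.95, 0.98) and Pcf11 (0.95, 0.95). The lowest were those of Bscl2 (-0.97, -0.95) and Ptpn14 (-0.97, -0.98). These are the extremes of many genes over few arrays that share labelling and scaling, and they are given as a description.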

How the data were processed

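Expression was measured on 8 short-oligonucleotide arrays, 4 per hemisphere. The table deposited by the authors holds linear signal intensity, computed with MAS5 per the submitters' processing notes, whose version is not stated there. Arrays were rescaled to a shared 2% trimmed mean and the 66 controls dropped. The log2 scale used a pseudocount of 15.3 (the 10th percentile of signals), which understates changes of dim genes. Probe sets with a mean above the 40th percentile were kept, 7453 of 12422. Names came from platform annotation with 1 symbol (10833 probe sets), updated to GRCm38.p6 symbols.

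The hemispheres were compared in limma 3.58.1 under R 4.3.3 (eBayes with an intensity trend, two-sided, Benjamini-Hochberg over the kept probe sets, threshold 0.05), after testing on simulated data. Differences are deprived minus non-deprived, and the number of arrays limits their precision. Dim members were read from a fit to all probe sets. Same-numbered arrays had deviations from their group means that correlated at 0.158 to 0.422. Those of other arrays of opposite groups correlated at -0.272 to 0.123. On the data alone, equal numbers were therefore shown as pairs. The reported fit did not hold the pairs, and the replicate number as a block was an alternative setting. With the block, 524 probe sets had a limma unadjusted p under 0.05, against 199 in the reported fit. Members, lists and settings were chosen with earlier results of these data known. The text names all members, the gene of each surrounding list with the smallest p in each direction, Apaf1, Casp9, Xiap, Foxo3, Jun, Ddit3 and Bbc3, and the 5 most and 2 least correlated genes. In the marker lists the smallest p in each direction gave Sst, Wfs1, Zbtb20, Tcf7l2, Rora, Hba-a1 and Alas2, among others that are not named. A further gene fixed by name is not reported here. Snap25, Ptprc, Npy, Birc2, Birc6, Dffa, the dim death receptor genes and the motif GTAAACA were added after values were seen. Figures were drawn with matplotlib 3.10.9.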

Additional observations from a re-analysis of the deposited data

Results flagged for a closer look

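Bcl2l1 is listed here because 1 of its arrays lay apart. In 99027_at deprived replicate 2 had a signal of 2509.4, and its gap to the nearest deprived array made up 0.89 of the group's whole range of log2 values. Among the 28 groups of 4 examined (14 probe sets in each hemisphere) this was the only such sample, and chance flags about 1 in 20 groups, or 1.4 here. Without it the difference of Bcl2l1 was 0.04 in place of 0.15.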

How the results depend on the processing

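Under the 20 alternative settings limma called 0 probe sets over the whole table, with 97 (stricter filter) to 535 (random replicate block) at an unadjusted p under 0.05. The median of the tested members, 99418_at included, was 0.01 to 0.12 over the settings and 0.04 to 0.17 when an array was left out. Bcl2l11 99418_at kept its direction under all 20, from 0.69 with a pseudocount of 50 to 1.11 with the Gapdh ratio as a covariate. When an array was left out it was 0.63 to 0.94. This probe set was selected for its difference in these arrays, and its groups do not overlap. Leaving out an array or changing the pseudocount could therefore not turn its sign, and nothing is read from the kept direction. With the replicate block 99418_at had 0.79 ± 0.20 (SE), and the block called 0 probe sets and no member. The sign turned under 7 of 20 settings for Bcl2l11 100988_at (-0.13 to 0.09 over all), 8 for Bad 161500_i_at, 2 for Bad 99670_at, 3 for Bcl2 98870_at and 1 for Mcl1. Bid, Bak1, Bcl2l2, Bcl2l1 99027_at and Bcl2 98869_g_at kept theirs. With the actin ratio as a covariate, however, Bcl2l1 99027_at had 0.01 ± 0.15 (SE) and Bcl2l2 0.03 ± 0.17 (SE). Why 99418_at and 100988_at differ was not tested, and signals near the 10th percentile, as in the 3 dim probe sets, have little above background to compare.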

Other observations

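For Bcl2l11 99418_at, chosen after its values were seen, the genes whose deviations from the group means followed it most closely over the 8 arrays were Tmx1 (Pearson 0.94), Gsn (0.92), Klf3 (0.92), Trafd1 (0.91) and Stat3 (0.91), out of 5667. The lowest were Cpd and Btf3l4, both at -0.96. Their own log2 differences between deprived and non-deprived cortex were small, from -0.10 ± 0.18 (SE) for Btf3l4 to 0.17 ± 0.14 (SE) for Stat3. Tnfrsf1b, a TNF receptor of the death receptor list named here for its size after values were seen, had a mean signal of 197.4 in deprived and 133.2 in non-deprived cortex, a difference of 0.50 ± 0.22 (SE) that did not pass.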
